A study of Rattus norvegicus with 36 samples.

Results

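The genes of the G1 phase and of DNA replication were followed in the livers of 36 male rats, dosed with the brominated flame retardant DBDPE (decabromodiphenylethane) or with corn oil alone. They were taken from a list of 45 genes by gene symbol, with the probe set of highest mean for each gene. The arrays measured 43 of the 45, out of 14217 genes named by a probe set of their own. Cdc6 and Gins2 were not analysed here. Among the 43 genes were the 6 subunits of the MCM helicase, 7 genes of origin licensing and firing, 7 of the DNA polymerases and primase, and 9 of the sliding clamp, its loader, single-strand binding and strand joining. The others were 3 genes of nucleotide supply, 3 of chromatin copying and 8 G1 cyclins, kinases and E2F1.

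The animals were Sprague Dawley males that entered the study at 7 weeks of age and were gavaged daily for 5 days with 5 ml/kg corn oil. RNA was taken from the left liver lobe 1 day after the final dose. The 6 groups of 6 samples received corn oil alone (vehicle, 0 mg/kg), or DBDPE at 0.1 mg/kg, 0.97 mg/kg, 9.71 mg/kg, 97.1 mg/kg or 970 mg/kg. All animals ate the NTP-2000 diet and drank tap water, and the labels name no genotype other than the strain. Total RNA from each liver was hybridised to 1 Affymetrix 3′ array, and the values are log2 signals per probe set.

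In a cell that leaves rest, D-type cyclins with Cdk4 and cyclin E with Cdk2 phosphorylate the retinoblastoma protein, which frees E2F1 and its relatives to switch on the genes of DNA replication. Origins are then loaded with the MCM helicase, the helicase is fired with Cdc45 and the GINS complex, and primase and the polymerases copy the strands behind it. Most hepatocytes of an adult liver rest outside the cycle, and these genes are known for their rise after partial hepatectomy and after exposure to liver mitogens.

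E2F proteins bind short sites near the start of many of these genes, so the promoter windows were searched for 4 forms of the site, TTTCCCGC, TTTCGCGC, TTTGCCGC and TTTGGCGC, on both strands. The windows were those of RefSeq for the rat build GRCr8, 300 bases each, with 250 before and 50 after the start. Windows were found for 37 of the 43 genes. Mcm4, Orc1, Ccnd1, Ccnd2, Ccne2 and E2f1 had no entry. The stretches of 5 MCM genes are shown because their signals were compared with each other between animals. Those of Tipin, Tyms and Pole2 are shown because they held a match and were among the genes of smallest p at a dose. Rfc5, Tk1, Pold2 and Pola2 were also among the genes of smallest p at a dose, and their windows held no match. Capitals mark the letters that match a form of the site on either strand, and overlapping matches were both counted.

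Mcm2: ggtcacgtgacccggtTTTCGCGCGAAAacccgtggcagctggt
Mcm3: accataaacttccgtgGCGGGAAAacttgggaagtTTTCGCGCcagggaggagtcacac
Mcm5: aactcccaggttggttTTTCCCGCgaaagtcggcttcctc
Mcm6: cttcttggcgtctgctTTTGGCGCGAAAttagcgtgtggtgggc
Mcm7: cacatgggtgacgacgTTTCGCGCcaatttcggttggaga
Tipin: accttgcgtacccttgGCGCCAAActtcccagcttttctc
Tyms: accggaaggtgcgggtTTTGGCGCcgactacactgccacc
Pole2: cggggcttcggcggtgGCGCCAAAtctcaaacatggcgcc

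The stretches lie at chr4:122918081-122918124 on the minus strand (Mcm2), chr9:30733710-30733768 minus (Mcm3), chr19:13488789-13488828 plus (Mcm5), chr13:42404464-42404507 minus (Mcm6), chr12:22163207-22163246 minus (Mcm7), chr8:73676044-73676083 plus (Tipin), chr9:120776097-120776136 minus (Tyms) and chr6:93435329-93435368 minus (Pole2). The windows of Mcm5 and Mcm7 hold further matches outside the stretch shown.

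A match stood in the windows of 17 of the 37 genes (45.9%), against 438 of the 11700 genes on the arrays with a window (3.74%) and 651 of all 27457 genes with a window (2.37%). All 5 MCM genes with a window held one. So did 4 of 6 genes of origin licensing and firing (Cdt1, Gins1, Gins3 and Tipin), 3 of 7 polymerase genes (Pola1, Pole and Pole2), and 3 of 9 clamp and joining genes (Rfc3, Lig1 and Rpa2). Uhrf1 was the only one of 3 chromatin copying genes with a match, Tyms was the only one of 3 nucleotide supply genes, and none of the 4 G1 cyclin and kinase genes with a window had one. In a separate list of other replication genes 14 of 27 held the site (51.9%), and in a list of mitosis genes 1 of 16 did (6.25%). The letters TTTGAA, the CHR motif known from promoters of mitosis genes, were searched after the expression values had been seen. They stood in the windows of 3 of the 37 genes (8.11%) and of 11 of the 16 mitosis genes (68.8%), against 13.3% of the genes on the arrays. A match is a string of letters in a window and does not show that a factor binds there.

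**Figure D1:**
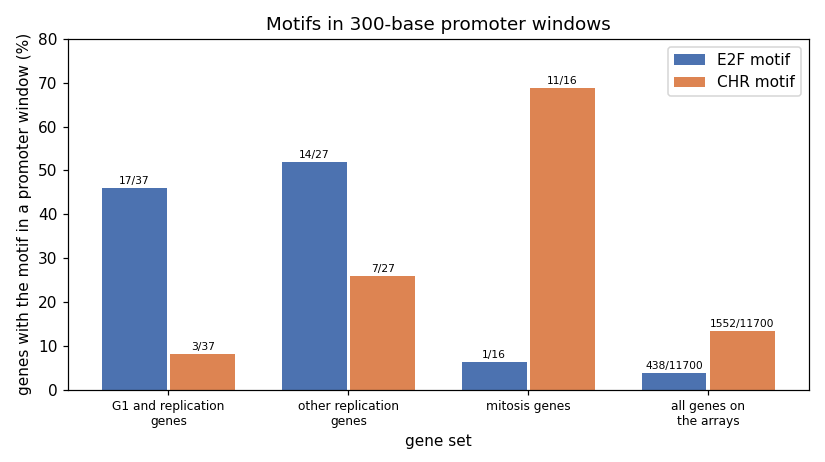
Share of genes, in percent, whose 300-base promoter window holds an E2F or a CHR motif, for 4 sets of genes. The E2F motif stands in 45.9% of the G1 and replication genes with a window and in 6.25% of the mitosis genes, and the CHR motif in 8.11% and 68.8%.

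The arrays were alike across the series, with array medians between 5.07 and 5.12 and correlations between pairs of arrays of 0.993 to 0.997 over 31042 probe sets. All 10 hepatocyte markers measured had mean signals above every array median, between 9.40 and 14.66, and so did all 10 Kupffer cell markers measured, whereas 2 of 6 neutrophil, 2 of 6 erythroid, 4 of 12 T and NK cell and 1 of 3 B cell markers did. Of the 43 G1 and replication genes, 30 had a mean above every array median, and 13 had a mean below every one (Orc1, Cdt1, Gins1, Gins3, Tipin, Pola1, Pole, Pole2, Chaf1a, Uhrf1, Ccne1, Ccne2 and E2f1), a range in which such arrays are known to compress differences. The 2 probe sets that passed limma's test at 970 and at 97.1 mg/kg were those of Cyp1a1 and Cyp1a2, xenobiotic-metabolising enzymes known as aryl hydrocarbon receptor targets, which stood 6.23 and 0.86 (log2) above vehicle at 970 mg/kg and 3.49 and 0.51 above it at 97.1 mg/kg. None passed at the 3 lower doses. The samples are numbered in the labels and each was taken as 1 rat, so p-values measure the spread between these samples. In whole liver, fewer cells of a type and less RNA per cell cannot be told apart.

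At 970 mg/kg, 36 of the 43 genes lay above their vehicle mean and 7 below, with a median log2 fold change of 0.06 and a range of -0.21 to 0.28. None of the 43 passed limma's test with Benjamini-Hochberg adjustment over 31042 probe sets, where 0.00644% of all probe sets passed, and the smallest adjusted p among them was 0.966. Over all probe sets the median was -0.004 and 48.1% lay above 0. At an unadjusted p under 0.05, 4 genes were higher (Mcm4, Mcm6, Rfc5 and Tk1), which is 9.30% of the 43 against 2.38% of all probe sets, and 0 were lower, against 2.49%. For the highest-mean probe set of each of the 43 genes, the 95% interval lay inside a 1.5-fold change in either direction. This held at this dose and at each lower one, with a median half-width of 0.16 on the log2 scale. It did not hold for every further probe set. A further Ccnd1 probe set ran from -0.63 to 0.05 at 970 mg/kg, and that of Mcm10 from -0.68 to 0.10 at 9.71 mg/kg. No gene had all 6 animals of 970 mg/kg outside the vehicle range, against 0.116% of all probe sets with all 6 above and 0.0838% with all 6 below.

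**Figure D2:**
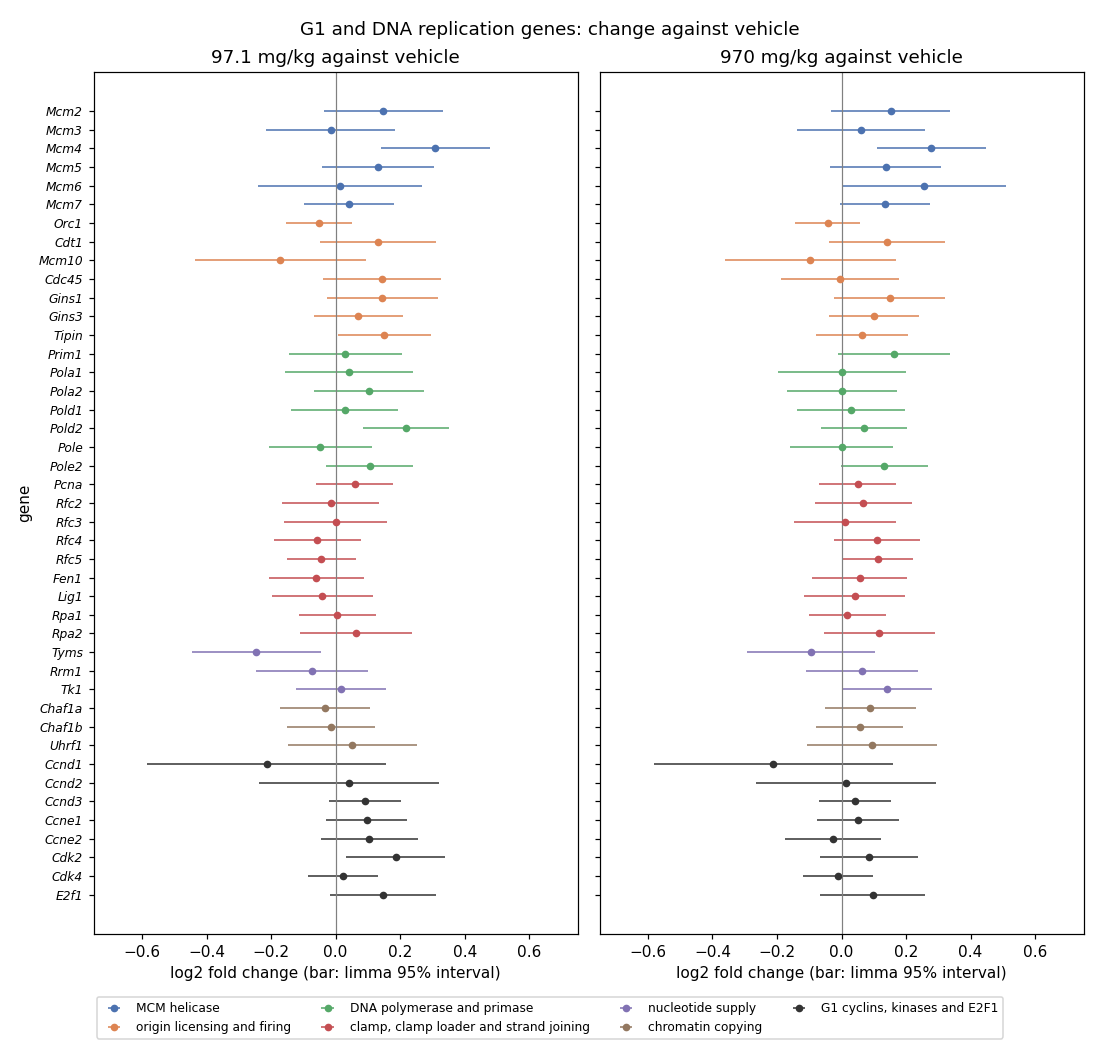
Log2 fold change (points) with limma's 95% interval (bars) of each of the 43 genes at 97.1 mg/kg (left) and 970 mg/kg (right) against vehicle, coloured by role. At 970 mg/kg 36 points lie to the right of 0, with Mcm4 at 0.28, and at 97.1 mg/kg 28 do, with Mcm4 at 0.31 and Tyms at -0.25.

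The MCM helicase unwinds the DNA ahead of the polymerases, and its 6 subunits (Mcm2 to Mcm7) form a ring. All 6 genes lay above vehicle at 970 mg/kg, by a median of 0.14. Mcm4 had log2 signals of 6.82, 6.94 and 7.27 (lowest, median and highest) at 970 mg/kg, against 6.57, 6.66 and 6.96 in vehicle. The groups overlapped, and 2 of the 6 animals at 970 mg/kg stood above every vehicle animal. The log2 fold change of Mcm4 was 0.28 (95% interval 0.11 to 0.45, unadjusted p = 0.00198, limma adjusted p = 0.966). Mcm6 had 5.20, 5.65 and 6.09 at 970 mg/kg, against 5.23, 5.38 and 5.54 in vehicle. Of the animals at 970 mg/kg, 4 stood above every vehicle animal and 1 below every one, so that the spread was wider than in vehicle. The Mcm6 log2 fold change was 0.26 (95% interval 0.003 to 0.51, limma adjusted p = 0.966). Mcm2, Mcm5, Mcm7 and Mcm3 lay 0.15, 0.14, 0.14 and 0.06 above vehicle, none past the test.

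The genes of origin licensing and firing did not share a direction at 970 mg/kg. Gins1, a subunit of the GINS complex that joins the active helicase, lay 0.15 above vehicle, Cdt1, which loads the helicase, 0.14, Gins3 0.10, and Tipin, a partner of the fork protection factor Timeless, 0.06. Cdc45, the other partner of the active helicase, lay at -0.003, Orc1, the large subunit of the origin recognition complex, at -0.04, and Mcm10, a firing factor outside the ring, at -0.10. None of the 7 passed limma's test.

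All 7 polymerase and primase genes lay above 0 at 970 mg/kg, by a median of 0.03. Pole2, the second subunit of the leading-strand polymerase, had 3.92, 4.10 and 4.35 at 970 mg/kg, against 3.90, 3.99 and 4.17 in vehicle. The groups overlapped and 2 of 6 animals at 970 mg/kg stood above every vehicle animal, with a log2 fold change of 0.13 (95% interval -0.002 to 0.27, limma adjusted p = 0.966). Prim1, the catalytic subunit of primase, lay 0.16 above vehicle, Pold2, an accessory subunit of the lagging-strand polymerase, 0.07 and Pold1, its catalytic subunit, 0.03. Pola1, Pola2 and Pole were within 0.01 of vehicle.

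Pcna is the sliding clamp, the Rfc proteins load it, the Rpa proteins cover single strands, and Fen1 and Lig1 trim and seal Okazaki fragments. All 9 of these genes lay above 0 at 970 mg/kg, by a median of 0.06. Rfc5 had 7.97, 8.04 and 8.18 at 970 mg/kg, against 7.89, 7.93 and 7.98 in vehicle. Its vehicle animals lay close together, and 4 of 6 animals at 970 mg/kg stood above all of them. The log2 fold change was 0.11 (95% interval 0.005 to 0.22, limma adjusted p = 0.966), and it was 0.05 for the other Rfc5 probe set. Rpa2, Rfc4, Rfc2, Fen1, Pcna, Lig1, Rpa1 and Rfc3 lay 0.12, 0.11, 0.07, 0.06, 0.05, 0.04, 0.02 and 0.01 above vehicle. Pcna, a common marker of S phase, had a 95% interval of -0.07 to 0.17.

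Tk1, the thymidine kinase that salvages thymidine in S phase, had 6.82, 7.06 and 7.29 at 970 mg/kg, against 6.82, 6.91 and 7.02 in vehicle. The groups overlapped, with 4 of 6 animals at 970 mg/kg above every vehicle animal and a log2 fold change of 0.14 (95% interval 0.003 to 0.28, limma adjusted p = 0.966). The other Tk1 probe sets gave 0.16 and 0.004. Rrm1, the large subunit of ribonucleotide reductase, lay 0.06 above vehicle, and Tyms, the thymidylate synthase that makes thymidine monophosphate, at -0.09. Chaf1a and Chaf1b, subunits of the chromatin assembly factor that packs new DNA, lay 0.09 and 0.06 above vehicle, and Uhrf1, which guides the copying of DNA methylation, 0.09. None of these 6 genes passed limma's test.

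Upstream of replication, 5 of the 8 G1 genes lay above 0 at 970 mg/kg. E2f1, the transcription factor that many replication genes answer to, lay 0.10 above vehicle, Cdk2, the partner of cyclin E, 0.09, Ccne1 0.05, Ccnd3 0.04 and Ccnd2 0.01. Cdk4, the partner of the D-type cyclins, lay at -0.01 and Ccne2 at -0.03. Ccnd1, the D-type cyclin most studied in liver growth, lay at -0.21 (95% interval -0.58 to 0.16), and its other probe sets at -0.29 and -0.23. Ccnd1 varied between animals of a group more than 97.8% of all probe sets, so that this interval was the widest of the 43.

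Of the 43 genes, 8 had further probe sets, 12 in all, and 6 of the 12 had the sign of the main probe set at 970 mg/kg. Those were the probe sets of Rfc5, Tk1 and Ccnd1 given above and that of Ccne2, at -0.08. The other 6 had the opposite sign. The 3 further probe sets of Cdc45 lay at 0.07, 0.01 and 0.002, beside -0.003 for the main one, and that of Mcm10 at 0.03, beside -0.10. The further probe set of Cdk2 lay at -0.11, beside 0.09, and that of Lig1 at -0.01, beside 0.04. None of the 12 passed limma's test.

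**Figure D3:**
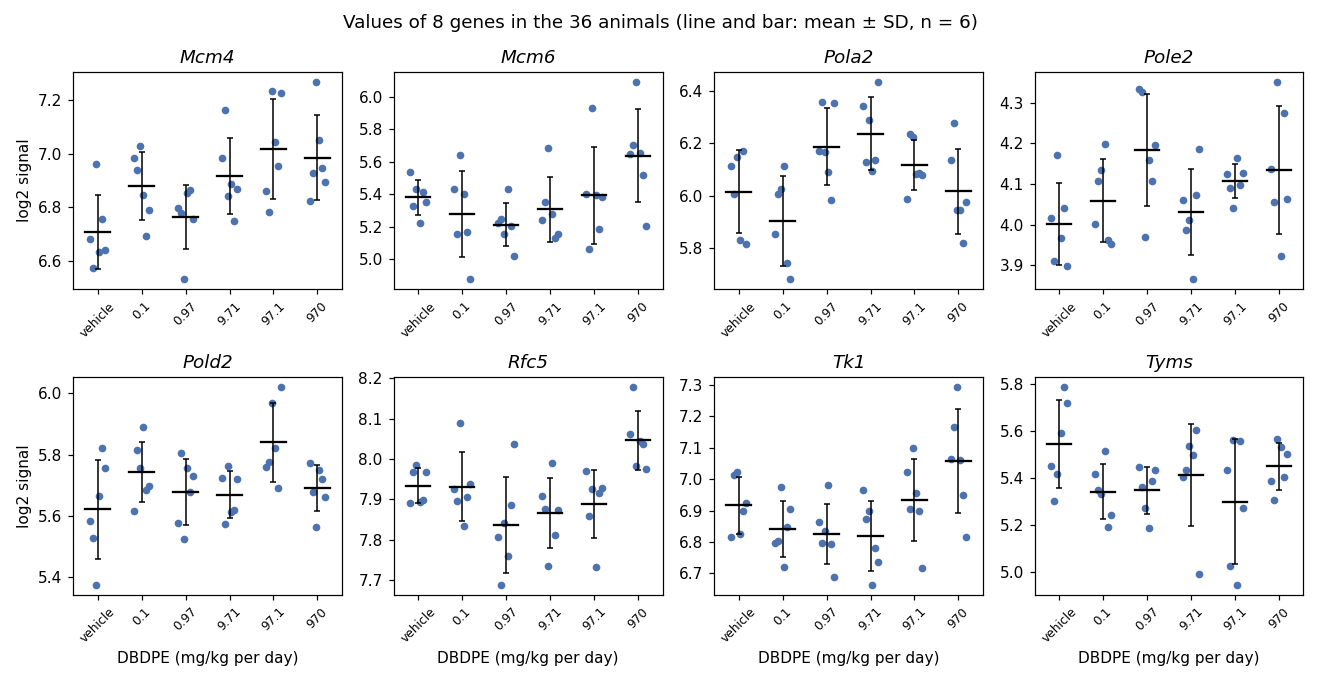
Log2 signal of 8 named genes in each of the 36 animals (points) by dose in mg/kg, with the group means (bars). The points at 970 mg/kg overlap the vehicle points in each panel, from Mcm4 at 6.82 to 7.27 against 6.57 to 6.96 in vehicle to Rfc5 at 7.97 to 8.18 against 7.89 to 7.98.

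At 97.1 mg/kg, 28 of the 43 genes lay above vehicle and 15 below, against 50.5% of all probe sets above 0, with a median of 0.04 and a range of -0.25 to 0.31. None passed limma's test (0.00644% of all probe sets did), with a smallest adjusted p of 0.900. At an unadjusted p under 0.05, 4 were higher (Mcm4, Tipin, Pold2 and Cdk2, against 2.73% of all probe sets) and 1 lower (Tyms, against 2.70%). No gene had all 6 animals outside the vehicle range, against 0.0548% of all probe sets with all 6 above and 0.0966% with all 6 below. The directions depended on 1 animal: without replicate 3 of 97.1 mg/kg, 20 of 43 genes lay above vehicle (50% of all probe sets did) and the median was -0.0004. Without replicate 4 of that dose, 31 lay above vehicle, and the genes with an unadjusted p under 0.05 were Mcm4 and Pold2. With every animal kept, the shares of all probe sets were 50.5% above vehicle and 5.42% at an unadjusted p under 0.05. Mcm4 had 6.78, 7.00 and 7.23 at 97.1 mg/kg, with 3 of 6 animals above every vehicle animal and a log2 fold change of 0.31 (95% interval 0.14 to 0.48, limma adjusted p = 0.900). Pold2 had 5.69, 5.80 and 6.02 at 97.1 mg/kg, against 5.38, 5.62 and 5.82 in vehicle. Again 3 of 6 animals at the dose stood above every vehicle animal, and the log2 fold change was 0.22 (95% interval 0.08 to 0.35). Tyms had 4.94, 5.35 and 5.56 at 97.1 mg/kg, against 5.30, 5.52 and 5.78 in vehicle, with 3 of 6 animals below every vehicle animal. Its log2 fold change was -0.25 (95% interval -0.44 to -0.05, limma adjusted p = 0.900). The Cdk2 log2 fold change was 0.19, and its other probe set gave 0.01. Ccne2 lay 0.10 above vehicle, whereas its other probe set lay below, at -0.23 (95% interval -0.39 to -0.06). For that probe set the unadjusted limma p was 0.00842 and the adjusted one 0.900.

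At 9.71 mg/kg, 19 of 43 genes lay above vehicle, against 49.1% of all probe sets, with a median of -0.01, and none passed limma's test (0% of all probe sets did). At an unadjusted p under 0.05, 4 were higher (Mcm4, Tipin, Pola2 and Ccnd2, against 2.43% of all probe sets) and 0 lower (against 2.63%). No gene had all 6 animals outside the vehicle range, against 0.0709% of all probe sets above and 0.110% below. Tipin had 4.70, 4.84 and 4.99 at 9.71 mg/kg, against 4.53, 4.66 and 4.72 in vehicle, with 5 of 6 animals above every vehicle animal. Its log2 fold change was 0.19 (95% interval 0.05 to 0.33, limma adjusted p = 0.967). Pola2, the regulatory subunit of the polymerase that holds primase, had 6.09, 6.21 and 6.44 at 9.71 mg/kg, against 5.82, 6.06 and 6.17 in vehicle. The groups overlapped, with 3 of 6 animals at the dose above every vehicle animal and a log2 fold change of 0.22 (95% interval 0.05 to 0.39).

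At 0.1 and at 0.97 mg/kg, 17 of 43 genes lay above vehicle, against 49.6% and 50% of all probe sets, with medians of -0.01 and -0.02, and none passed limma's test (0% of all probe sets did). At 0.97 mg/kg Pole2 and Pola2 were the 2 genes with an unadjusted p under 0.05, both higher, which is 4.65% of the 43 against 2.45% of all probe sets, and 0 were lower, against 2.46%. The number depended on single animals: without replicate 6 of 0.97 mg/kg, 6 genes had an unadjusted p under 0.05 (Pole2, Rfc2, Rfc5, Tyms, Ccne1 and E2f1), against 6.01% of all probe sets, with the smallest p for Rfc5 (limma adjusted p = 0.782). It was 1 (Pole2) without replicate 2 or 3 of that dose or vehicle replicate 4, against 4.64%, 4.4% and 5.49% of all probe sets. No gene had all 6 animals outside the vehicle range, against 0.129% of all probe sets above and 0.106% below. Pole2 had 3.97, 4.18 and 4.33, 3 of 6 animals above every vehicle animal, and a log2 fold change of 0.18 (95% interval 0.05 to 0.32, limma adjusted p = 0.985). Pola2 had 5.98, 6.17 and 6.36, 2 animals above every vehicle animal, and a log2 fold change of 0.17. At 0.1 mg/kg Mcm4 was the 1 gene higher at an unadjusted p under 0.05, against 2.31% of all probe sets, and Tyms the 1 gene lower, against 2.15%. No gene had all 6 animals outside the vehicle range at 0.1 mg/kg, against 0.0805% of all probe sets above and 0.0580% below. Mcm4 had 6.69, 6.89 and 7.03 at 0.1 mg/kg and a log2 fold change of 0.17, and Tyms had 5.19, 5.34 and 5.51 and -0.20, each with 2 of 6 animals outside the vehicle range and a limma adjusted p of 0.999. No gene had an unadjusted p under 0.05 without replicate 2 or 3 of 0.1 mg/kg or vehicle replicate 4. The shares of all probe sets were then 3.87%, 5.31% and 3.94%. Only 1 gene had it without replicate 5 or 6 of that dose or vehicle replicate 1, 2 or 6. The shares of all probe sets were then 4.7%, 4.37%, 4.79%, 4.69% and 5.21%. The 5 doses share the same 6 vehicle animals, so the sign of a gene at several doses is not independent. From the lowest dose to the highest, the log2 fold changes were 0.17, 0.06, 0.21, 0.31 and 0.28 for Mcm4 and -0.20, -0.20, -0.13, -0.25 and -0.09 for Tyms.

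In the last dose step the difference of means did not use the vehicle animals. Its intervals and p-values used the spread within all 6 groups. At 970 against 97.1 mg/kg, 29 of 43 genes lay above 0, against 47.8% of all probe sets, with a median of 0.01, and none passed limma's test (0.00644% of all probe sets did; smallest adjusted p = 0.999). Rfc5 and Rfc4, both clamp loader subunits, were higher at an unadjusted p under 0.05, which is 4.65% of the 43 against 1.74% of all probe sets, and Pold2 was lower, against 2.11%. Rfc5 had 7.97, 8.04 and 8.18 at 970 mg/kg, against 7.73, 7.92 and 7.97 at 97.1 mg/kg. All 6 animals of 970 mg/kg stood above all 6 of 97.1 mg/kg, which held for 1 of the 43 genes and for 0.0677% of all probe sets. The log2 difference of Rfc5 was 0.16 (95% interval 0.05 to 0.27). Rfc4 had 6.27, 6.49 and 6.59 at 970 mg/kg, against 6.15, 6.31 and 6.47 at 97.1 mg/kg, with 4 of 6 animals above the lower group and a difference of 0.17 (95% interval 0.03 to 0.30). The Mcm4 difference was -0.03 and the Mcm6 difference 0.24. The list's median moved with 1 animal of either group: it was 0.004 without replicate 3 of 970 mg/kg and 0.05 without replicate 3 of 97.1 mg/kg. Without the replicate 3 animal of 97.1 mg/kg, 6 genes had an unadjusted p under 0.05 (Mcm6, Mcm7, Rfc4, Rfc5, Tk1 and Chaf1a), against 3.75% of all probe sets. Without replicate 6 of 970 mg/kg, 6 did as well (Mcm6, Prim1, Rfc4, Rfc5, Rrm1 and Tk1), against 5.17%, and the median was 0.04.

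Along the dose steps (0 for vehicle and 1 to 5 for the doses), 37 of 43 slopes were above 0, against 48.8% of all probe sets, with a median of 0.01 log2 units per step. None passed limma's test (0.00644% of all probe sets did). At an unadjusted p under 0.05, 8 genes had a positive slope (Mcm4, Mcm5, Mcm6, Gins1, Gins3, Tipin, Tk1 and E2f1), which is 18.6% of the 43 against 2.67% of all probe sets, and 0 had a negative one, against 3.02%. With each animal left out in turn, the number with an unadjusted p under 0.05 ran from 4, without replicate 1 of 970 mg/kg (Mcm4, Mcm5, Gins1 and E2f1, against 5.05% of all probe sets), to 10, without replicate 5 or 6 of that dose. It was 5 without replicate 4 of 970 mg/kg. With every animal kept, 5.7% of all probe sets had a slope at an unadjusted p under 0.05. The Mcm4 slope was 0.06 per step (95% interval 0.03 to 0.08, unadjusted p = 0.000397, limma adjusted p = 0.724). Its group medians were 6.66 in vehicle and 6.89, 6.79, 6.88, 7.00 and 6.94 at the doses from low to high, so they did not climb at every step. The E2f1 slope was 0.04 per step (95% interval 0.01 to 0.07, limma adjusted p = 0.863), over group medians of 4.21 in vehicle and 4.23, 4.13, 4.34, 4.42 and 4.39 at the doses from low to high. The E2f1 signals ran from 4.17 to 4.61 at 970 mg/kg, against 4.16 to 4.56 in vehicle. In limma's F test over all doses none of the 43 passed (0.00644% of all probe sets did), and 9 had an unadjusted p under 0.05 (20.9%, against 4.18%). Pola2 had the smallest p of the 43 in that test (0.00323, limma adjusted p = 0.996), and Mcm4 the next (0.00376, limma adjusted p = 0.999).

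Genes of neighbouring steps were measured beside the 43, and 0 of each list passed limma's test at 970 mg/kg (0.00644% of all probe sets did). Of all probe sets, 48.1% lay above vehicle at that dose and 4.87% had an unadjusted p under 0.05. Of 25 other replication genes 16 lay above vehicle, with a median of 0.02, and the smallest p values were those of Orc3 (-0.19), an origin recognition subunit, and Ung (-0.16), which removes uracil from DNA. Of 15 regulators of the RB and E2F pathway 11 lay above, with a median of 0.06, led by Tfdp2 (0.19), a dimer partner of the E2F proteins. Of 7 CDK inhibitors 5 lay above, led by Cdkn2d (0.25) and Cdkn2a (0.23), both inhibitors of Cdk4 and Cdk6. Of the 19 mitosis genes measured, all 19 lay above vehicle at 970 mg/kg by a median of 0.36, and 16 had an unadjusted p under 0.05, with Ccnb1, the mitotic cyclin, at 0.65 (limma adjusted p = 0.859). The mitosis median was -0.02 at 97.1 mg/kg, and the 970 against 97.1 mg/kg step had a median of 0.44 in the mitosis genes and 0.01 in the 43 G1 and replication genes. This difference between lists was not tested, and the lists were chosen with earlier results of these data known.

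Values per animal were set against the mean of all 36, gene by gene, and summarised as the median over the 43 genes. The medians were -0.01 ± 0.04 in vehicle, -0.02 ± 0.05 at 0.1 mg/kg, -0.03 ± 0.03 at 0.97 mg/kg, -0.01 ± 0.04 at 9.71 mg/kg, 0.03 ± 0.07 at 97.1 mg/kg and 0.04 ± 0.04 at 970 mg/kg (SD, n = 6 each). The highest 2 animals of the 36 were replicate 3 of 97.1 mg/kg, at 0.15 with 37 of 43 genes above the mean, and replicate 3 of 970 mg/kg, at 0.10 with 31 genes above it. Replicate 3 of 970 mg/kg had the highest signal of all 36 animals in 8 of the 43 genes, replicate 2 in 6 and replicate 4 in 5. Both replicate 3 animals stood at 0.33 for the MCM genes, and the mitosis list stood at 1.09 in replicate 3 of 970 mg/kg and at 0.50 in replicate 3 of 97.1 mg/kg. At 970 mg/kg, replicate 6 was the lowest, at -0.02 with 16 genes above the mean and a mitosis median of -0.15, and it had the largest beta-actin 3′ to 5′ difference of the 36 arrays, 1.33, a measure of RNA quality. That difference was 1.19 ± 0.08 at 970 mg/kg and 1.12 ± 0.07 in vehicle (SD, n = 6 each).

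**Figure D4:**
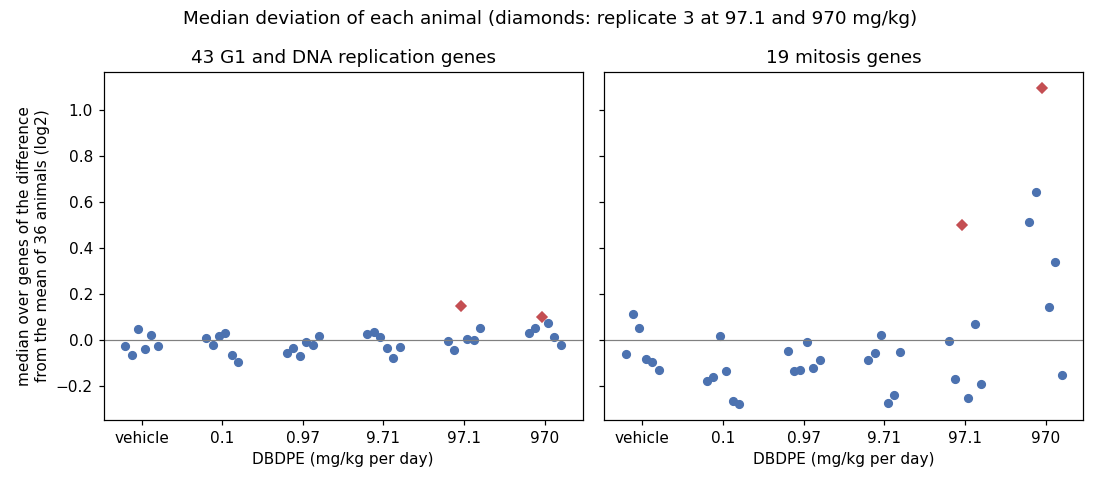
Median deviation of the 43 genes from their means over all 36 animals, 1 point per animal, by dose in mg/kg. The points of replicate 3 at 97.1 mg/kg (0.15) and at 970 mg/kg (0.10) are the highest, and both groups overlap the vehicle points, which run from -0.06 to 0.05.

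Without replicate 3 of 970 mg/kg, 33 of 43 genes lay above vehicle at that dose (48.6% of all probe sets did), the median was 0.05, and 2 genes had an unadjusted p under 0.05, against 4.88% of all probe sets. Without replicate 6, the animal of the largest beta-actin difference, 35 lay above vehicle (48.1% of all probe sets did), the median was 0.09, and 8 genes had an unadjusted p under 0.05 (Mcm4, Mcm6, Gins1, Prim1, Pole2, Rfc4, Rfc5 and Tk1), against 5.36%. That number was 1 without vehicle replicate 4 (Mcm4), against 4.95% of all probe sets. It was 2 without vehicle replicate 1 or 5, against 4.92% and 4.65%. It was also 2 without replicate 1 or 2 of 970 mg/kg, beside 4.87% of all probe sets with every animal kept. Without both replicate 3 animals, 33 slopes along the dose steps were above 0, with a median of 0.008, and 0 passed limma's test. With every animal kept, 48.8% of all probe sets had a slope above 0. Replicate 3 of 970 mg/kg also held higher signals of neutrophil markers, by a median of 0.60 over 6 genes, and of erythroid markers, by 0.24 over 6. Replicate 6 of that dose, the lowest there for the 43 genes, had an erythroid median of 0.29 and a neutrophil median of -0.26. Replicate 6 of 97.1 mg/kg had a neutrophil median of 0.49 and a mitosis median of -0.19. At 970 mg/kg all 10 Kupffer cell markers measured lay above vehicle, by a median of 0.20, and 10 of 12 T and NK cell, 4 of 6 neutrophil, 4 of 6 erythroid and 3 of 3 B cell markers did, by medians of 0.09, 0.06, 0.07 and 0.13. For hepatocyte and bile duct markers it was 4 of 10 and 4 of 5, by medians of -0.01 and 0.10. For endothelial markers it was 1 of 6, and for stellate cell and fibroblast markers 3 of 8, by medians of -0.05 and -0.08. The share of all probe sets above vehicle at that dose was 48.1%. The Kupffer cell markers lay above vehicle at the lower doses too, 10 of 10 at 0.1 mg/kg, 10 at 0.97 mg/kg, 9 at 9.71 mg/kg and 8 at 97.1 mg/kg, by medians of 0.17, 0.23, 0.14 and 0.10. Of the T and NK cell markers, 10, 12, 11 and 9 of 12 lay above vehicle at those doses, by medians of 0.05, 0.11, 0.07 and 0.14. Of the neutrophil markers, 4, 5, 3 and 6 of 6 did, and of the erythroid markers 3, 2, 1 and 1 of 6. Of the endothelial markers, 2, 3, 2 and 0 of 6 did. Of the stellate cell and fibroblast markers, 1, 3, 2 and 1 of 8 did. The shares of all probe sets above vehicle at those doses were 49.6%, 50%, 49.1% and 50.5%. Over the Kupffer markers the animals ran from -0.31 to 0.19 at 970 mg/kg, against -0.57 to 0.27 in vehicle. None of these markers passed limma's test, and their part in the values of the 43 genes was not tested.

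Mki67, a proliferation marker outside the list, was compared with each gene across the 36 animals after the dose group means were removed. Mki67 ran from 4.28 to 5.54 at 970 mg/kg, against 4.24 to 4.97 in vehicle. None of the 43 relations passed a permutation test within dose groups with adjustment over 31041 probe sets, and 0 of all probe sets did. With 100000 permutations, the smallest p that this test can give is too large for a single relation to pass that adjustment alone. The 0 that passed are therefore partly set by the number of permutations. Before adjustment, 11 of 43 genes had a positive relation at a p under 0.05, against 2.42% of all probe sets, and 0 of 43 had a negative one, against 1.8%. A Pearson r of 0.5 or more was found for 4 of 43 genes (9.30%), against 0.396% of all probe sets, and r lay above 0 for 33 of 43 (76.7%), against 49.4%. Rrm1 stood first, with Pearson r = 0.62 (permutation p = 0.00144, adjusted p = 0.721), Spearman rho = 0.48 (permutation p = 0.00648) and r = 0.48 without the 2 animals farthest in Mki67, which were replicate 3 of 97.1 and of 970 mg/kg. Uhrf1, Mcm6 and Gins1 had r of 0.53, 0.52 and 0.51, and 0.29, 0.26 and 0.28 without those animals, so these relations were weaker without them. With only the animal of highest Mki67 deviation left out, their r was 0.47, 0.38 and 0.41. E2f1 kept 0.48 without the 2 animals, beside an r of 0.49 and a rho of 0.53 in all 36. The median r of the 43 was 0.17, against -0.003 over all probe sets, and 0.06 without the 2 animals, when 0 of the 43 reached 0.5, against 0.206% of all probe sets. By role, the medians were 0.47 for nucleotide supply, 0.44 for chromatin copying, 0.32 for the MCM genes, 0.20 for the polymerase and primase genes, 0.04 for clamp and joining genes, -0.02 for the G1 genes and -0.05 for origin licensing and firing. The median was 0.66 over 18 mitosis genes. Mki67 and the beta-actin difference had r = 0.10 (permutation p = 0.59).

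**Figure D5:**
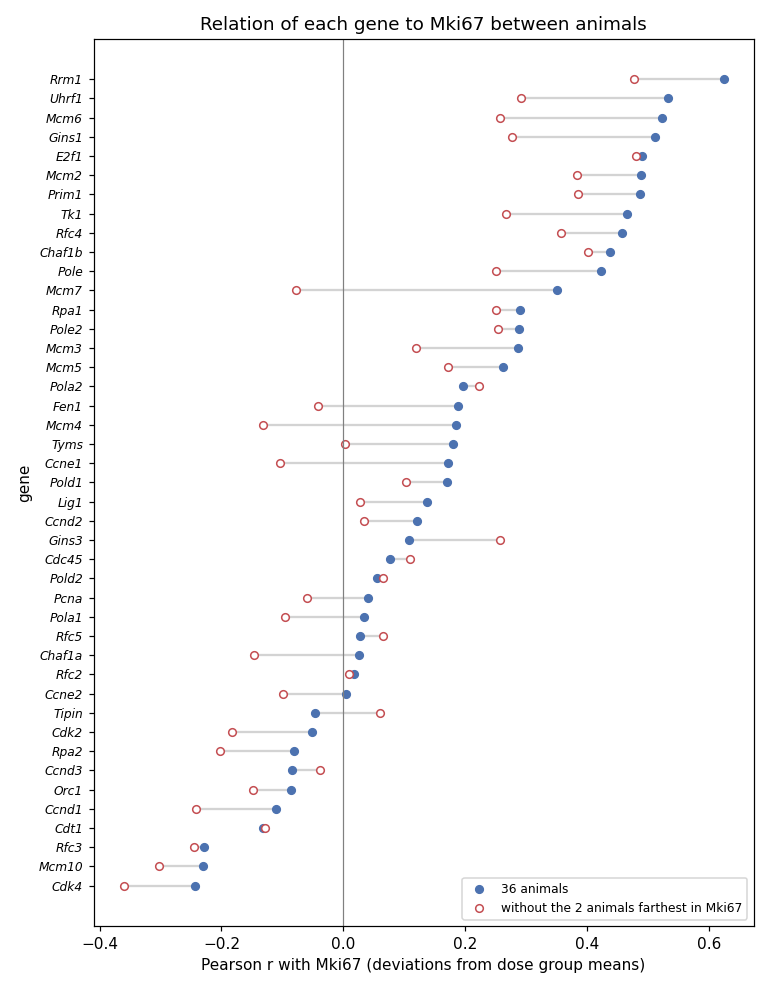
Pearson r of each of the 43 genes with Mki67 across 36 animals, as deviations from dose group means, over all animals and without the 2 animals farthest in Mki67. Rrm1 is highest at 0.62 over all animals and 0.48 without the 2, and Cdk4 is lowest at -0.24.

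The 6 MCM genes were compared pair by pair in the same way, 15 pairs in all. The median r was 0.39, beside 0.11 over the 903 pairs that the 43 genes form. With adjustment over the 15 pairs alone, 6 passed the within-group permutation test: Mcm6 with Mcm7 (r = 0.66), Mcm4 with Mcm7 (0.60), Mcm4 with Mcm6 (0.57), Mcm2 with Mcm6 (0.52), Mcm3 with Mcm7 (0.46) and Mcm3 with Mcm6 (0.43). Other pairs of the 43 genes and pairs of all probe sets were not put through this test, so the 6 have no share to stand beside. The first of them, Mcm6 with Mcm7, had a permutation p of 0.00067 (adjusted p = 0.0077) and Spearman rho = 0.57 (permutation p = 0.00104). Its r was 0.45 without the 2 animals farthest in Mcm6. Mcm2 with Mcm6 had a rho of 0.39 with an adjusted permutation p of 0.0827, and r = 0.33 without the 2 animals farthest in Mcm2. Mcm3 with Mcm6 had a rho of 0.33 with an adjusted permutation p of 0.128. The 5 pairs with Mcm5 had r between 0.06 and 0.25, and none of them passed. All genes of an animal come from 1 array, so the pairs share its RNA and its normalisation.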

How the data were processed

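Liver RNA of 36 rats was measured on 36 arrays. The authors deposited a log2 signal for each probe set, made with RMA and the affy package per the submitters' processing notes (versions not given in the sources used here). Of the table's probe sets, 57 controls were left out, and gene names come from the platform annotation. Each dose was compared with vehicle in limma 3.58.1 (R 4.3.3; lmFit and eBayes over all 36 samples, two-sided, no filter), with Benjamini-Hochberg adjustment over 31042 probe sets and a threshold of 0.05, and the method was tested on simulated data. Correlations used 100000 permutations within dose groups in scipy 1.17.1. Named genes were those of smallest p in each comparison: 5 at 970 mg/kg, 3 at 97.1 mg/kg and 2 in each other. The members and lists were chosen with earlier results of these data known. For samples with the same replicate number in different groups, the mean r between their residuals was 0.0048 (lowest -0.25, highest 0.26), and 15 of 90 pairs exceeded 0.1. Pairs of unlike number were not set beside them, so whether the number marks anything shared was not tested. The number of arrays limits the precision. Alternatives covered array centring, cyclic loess, array weights, the variance prior, a beta-actin covariate, low signals, the probe set chosen per gene, the replicate number and each sample left out.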

Additional observations from a re-analysis of the deposited data

Results flagged for a closer look

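Each gene was looked at in each group of 6 animals for a single animal set apart from the others, by a gap to its nearest neighbour above 0.625 of the group's range (Dixon's 95% value). This held in 16 of 258 sets, where chance gives about 1 in 20, or 12.9. Replicate 3 of 970 mg/kg was highest in Mcm7 (7.76) and lowest in Rfc3 (5.72), replicate 2 was highest in Mcm5 (5.82), and replicate 4 was highest in Cdk4 (9.06). At 97.1 mg/kg, replicate 3 was highest in Prim1 (6.63) and Pola1 (5.20), and replicate 6 was lowest in Cdc45 (6.14). At 9.71 mg/kg, replicate 6 was lowest in Tyms (4.99). At 0.97 mg/kg, replicate 3 was lowest in Mcm4 (6.53), replicate 4 was lowest in Pcna (8.94) and replicate 5 was highest in Ccne1 (5.08). At 0.1 mg/kg, replicate 6 was lowest in Mcm2 (5.49) and replicate 1 was highest in Cdk4 (9.07). In vehicle, replicate 3 was highest in Mcm5 (5.82) and Pold1 (5.48), and replicate 1 was lowest in Rpa2 (5.43).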

How the results depend on the processing

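None of the 43 genes passed limma's test in any comparison under any alternative, nor with any single animal left out; the smallest adjusted p was 0.425 for Mcm4 along the dose steps with the beta-actin difference as a covariate, and 0.407 without vehicle replicate 3. At 970 mg/kg the median log2 fold change stayed between 0.06 and 0.08 over 9 alternatives and between 0.05 and 0.09 with each animal left out. At 97.1 mg/kg it ran between -0.00043 (without replicate 3 of that dose) and 0.054 with each animal left out. The number of genes with an unadjusted p under 0.05 at 970 mg/kg ran between 1 and 8 with each animal left out. With every animal kept, 4.87% of all probe sets had such a p. With the replicate number as a block, 0 genes passed at 970 mg/kg (smallest adjusted p 0.950) and the block changed no other call. For the relations with Mki67 without removing dose group means, the animals were permuted over all 36 instead of within dose groups. Then 4 genes passed (Mcm6, Rfc4, Rrm1 and Tk1), which is 9.30% of the 43 against 0.251% of all probe sets. Differences between doses also enter the relation at this setting, and the effects of these changes were not told apart. With the 7-letter core of the E2F site, 73.0% of the genes held it, against 16.3% of the genes on the arrays, since a shorter string matches more often. The fits without both replicate 3 animals were chosen after seeing the data. Low signals limit 13 of the 43 genes.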
